A study of Arabidopsis thaliana with 18 samples.

Results

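In roots of Arabidopsis thaliana grown with full phosphate, 46 genes were lower under the cytokinin trans-zeatin and near their untreated level under its isomer cis-zeatin. They were chosen from 37037 entries of a gene count table by measured values alone. With L as the log2 of a group's mean CPM plus 1 (CPM is the count scaled to a common library total), a gene was kept when a group mean reached at least 5 CPM in at least 1 group and untreated L differed by under 1 between low and full phosphate. In addition, trans-zeatin had to lower L by at least 1 at full phosphate, and cis-zeatin had to leave it within 0.3 of untreated. All differences among untreated, trans-zeatin and cis-zeatin roots at full phosphate are therefore descriptions of the choice and carry no test. All 46 genes are annotated as protein coding, and all 46 passed the low-count filter of the tests that follow.

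The plants were wild-type Columbia (Col-0) seedlings, raised for 8 days on medium whose phosphate was 625 µM in the full and 5 µM in the low condition. At either level some plants got no zeatin, and others then got trans-zeatin or cis-zeatin, each at 5 µM and over 8 h, which makes 6 groups with 3 poly(A) RNA libraries in each. The labels name no mutant, no solvent control and no separate cultures for the replicates, so p-values measure only the spread between these libraries, which may be technical. Whole roots were sampled, so fewer cells of a type and less RNA per cell cannot be told apart.

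Zeatin isomers differ in the arrangement around the double bond of the side chain, which places the terminal hydroxyl group on one side or the other. Cytokinins bind histidine kinase receptors, from which a phosphorelay reaches type-B response regulators in the nucleus, and these switch on target genes that include the type-A response regulators. In roots, cytokinins are known to restrain meristem size and elongation, partly through the cell cycle and the cell wall. Trans-zeatin is the better ligand of most Arabidopsis receptors in binding assays, and cis-zeatin is usually the weaker agonist.

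The 250 bases before each annotated transcription start were searched for 10 short motifs. CAACGG is the core of the element that drives transcription in the G2 and M phases. It is shown because, of the 10, its share among the 46 genes stood furthest above that of all promoters. It stands on either strand in 8 of 46 promoters (17.39%) and in 1450 of 27443 promoters of all protein-coding genes (5.284%). These shares were compared without a test, and a match describes letters, not a bound site. The 4 promoters shown are those of the 2 histone genes, which let its place be compared between genes of one role, of the early nodulin-like gene ENODL15 and of AT2G38160, where it lies 12 to 7 bases before the start. All are written 5′ to 3′ in the direction of the gene and end at the base before the start, from the RefSeq assembly TAIR10.1, with CAACGG or its reverse complement CCGTTG in capitals. They lie at chr1:18926561-18926810 (plus strand) for HTA10 (AT1G51060), chr5:3269595-3269844 (minus strand) for AT5G10390, chr4:15401390-15401639 (plus strand) for ENODL15 (AT4G31840) and chr2:15988776-15989025 (minus strand) for AT2G38160.
HTA10: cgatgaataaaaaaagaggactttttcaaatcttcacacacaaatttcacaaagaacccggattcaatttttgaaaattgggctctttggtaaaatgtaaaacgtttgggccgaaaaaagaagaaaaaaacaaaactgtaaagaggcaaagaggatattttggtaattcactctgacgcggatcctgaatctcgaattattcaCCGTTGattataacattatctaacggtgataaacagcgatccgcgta
AT5G10390: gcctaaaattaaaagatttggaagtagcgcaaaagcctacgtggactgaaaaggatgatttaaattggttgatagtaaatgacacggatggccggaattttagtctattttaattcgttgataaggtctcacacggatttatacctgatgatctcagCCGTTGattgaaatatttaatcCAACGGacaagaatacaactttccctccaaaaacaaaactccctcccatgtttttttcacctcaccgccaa
ENODL15: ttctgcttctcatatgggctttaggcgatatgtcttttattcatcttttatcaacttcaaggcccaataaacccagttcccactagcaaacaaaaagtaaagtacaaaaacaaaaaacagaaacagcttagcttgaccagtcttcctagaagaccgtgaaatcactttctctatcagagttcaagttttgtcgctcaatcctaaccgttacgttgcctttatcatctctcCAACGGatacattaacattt
AT2G38160: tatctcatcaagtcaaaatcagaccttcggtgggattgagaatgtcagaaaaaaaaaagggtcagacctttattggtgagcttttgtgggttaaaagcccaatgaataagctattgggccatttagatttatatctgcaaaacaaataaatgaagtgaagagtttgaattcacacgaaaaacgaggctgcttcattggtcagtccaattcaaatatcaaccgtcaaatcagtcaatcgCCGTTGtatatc

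AT5G10390, a histone H3.1 gene, holds the motif on both strands, between 93 and 66 bases before the start. In HTA10, a histone H2A gene, it lies 47 to 42 bases before the start. In ENODL15 it lies 20 to 15 bases before the start. MSS3, LBO1 and ELIP1 also hold it. The other motifs were searched on both strands as well. AGATT, the core bound by type-B response regulators, stood in 65.22% of the 46 promoters and in 63.67% of all promoters. TTTCCCGC, the E2F element of S-phase genes, stood in none of the 46 and in 0.6195% of all. TTGACC, the W-box core, stood in 6.522% against 12.18%. GNATATNC, the P1BS element of phosphate-starvation genes, stood in 4.348% against 5.459%. For CACGTG (G-box), TGACG (TGA element), TGGGCC (site II) and AAACCCTA (telo-box) the shares were 6.522%, 19.57%, 13.04% and 4.348% against 6.486%, 18.58%, 13.65% and 4.486%. AAAATATCT, the evening element, stood in none of the 46 and in 2.361% of all. The 46 genes lie on all 5 chromosomes (12, 7, 7, 6 and 14 genes on chromosomes 1 to 5). Only a pair of C1-domain genes, AT5G54020 and AT5G54040, and the pair RPA70D and GR-RBP3 are close, each with 2 protein-coding genes between them.

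The libraries hold 20839562 to 21871669 counted reads. Untreated levels at full phosphate ran from 5.11 to 434.71 CPM over the 46 genes, with a median of 20.9 CPM. Replicates differed beyond counting noise in every group, most in low phosphate with cis-zeatin, where the pairs that include replicate 2 have a chi-square per degree of freedom of 28.4 and 30.7, and with trans-zeatin, where the pairs that include replicate 2 have 13.6 and 20.7. The other pairs lie between 2.74 and 11.9. The labels name no batch. Reads discarded for undetermined bases fall into 3 groups, called sequencing sets here and inferred from gaps of over 15000 reads. The first holds untreated and trans-zeatin roots at full phosphate, the second holds cis-zeatin roots at full phosphate, untreated roots at low phosphate and replicate 1 of low-phosphate trans-zeatin, and the third holds the remaining low-phosphate zeatin libraries. The cis-zeatin roots at full phosphate thus belong to another set than the untreated and trans-zeatin roots. In the choice of the 46 genes isomer and set therefore cannot be told apart. The cut is close for replicate 2 of low-phosphate cis-zeatin, with 40794 such discarded reads. The nearest libraries have 25354 in the second set and 51830 in the third.

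The choice was narrow. At full phosphate 509 genes met the other conditions and were lowered by trans-zeatin by at least 1, and 46 of them (9.04%) lay within the cis-zeatin window. A further 460 were lower under cis-zeatin by more than 0.3 and 3 were higher by more than 0.3. Among the 46, cis-zeatin L was below untreated in 41 and above it in 5, and in 27 it lay between -0.3 and -0.2. Most of the 46 thus lie towards the lower edge of the window. Under trans-zeatin the median gene was at 43.3% of its untreated CPM, against 85.3% under cis-zeatin. Just inside the bound of a fall of 1 stood ENODL14 at -1.001, AT2G23530 at -1.003 and AT2G38160 at -1.004, and just outside stood RPA70B at -0.998, AT3G20240 at -0.997 and GALS1 at -0.996. At the cis-zeatin bound, AT5G20885 (-0.294), HIK (-0.293) and LBO1 (-0.290) were kept and PTR4 (-0.302), AT5G42860 (-0.303) and EPS1 (-0.306) were not. When each library was left out in turn, 14 of the 46 met the rule every time and 32 dropped out at least once. With TMM-scaled CPM the rule kept 33 genes, of which 23 are among the 46.

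**Figure D1:**
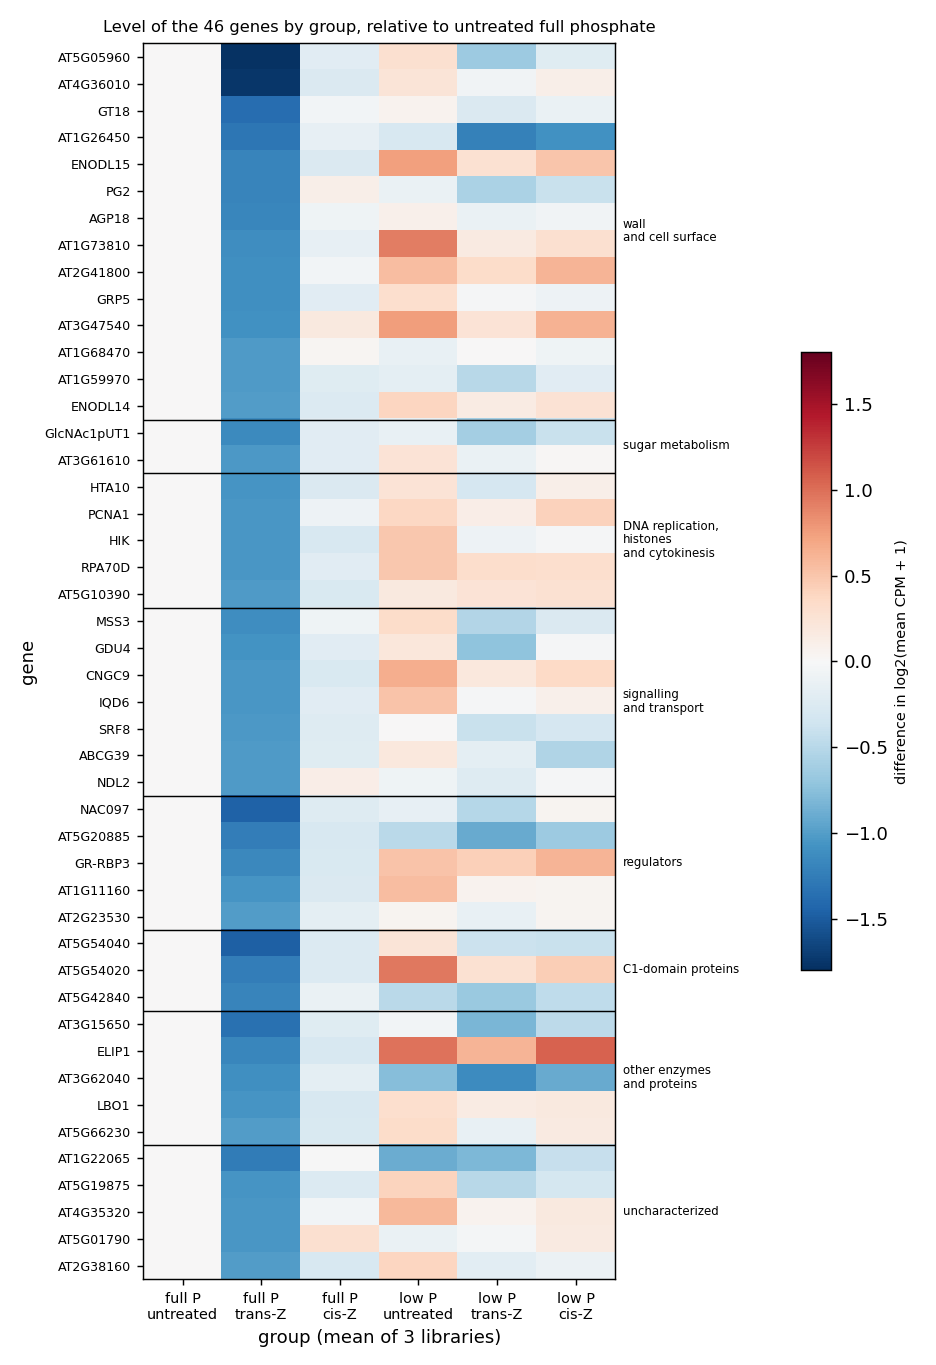
Difference in log2(mean CPM + 1) from untreated full-phosphate roots for the 46 genes (rows, grouped by annotated role) in each of the 6 groups (columns, means of 3 libraries); blue is lower and red higher. The trans-zeatin column at full phosphate spans -1.78 to -1.001 by the choice of genes, while the cis-zeatin column stays between -0.29 and 0.28 and the low-phosphate columns vary between genes.

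The largest role group was the cell wall and cell surface, with 14 genes by their annotation, a grouping made after the values were seen. AT5G05960, which encodes a lipid-transfer-like protein, had the largest difference of the 46, with 95.3, 80.5 and 82.8 CPM in untreated, 26.5, 19.4 and 27.5 CPM in trans-zeatin and 70.8, 80.4 and 72.1 CPM in cis-zeatin roots at full phosphate. All trans-zeatin libraries were far below both other groups, and L was -1.78 from untreated under trans-zeatin and -0.21 under cis-zeatin. AT4G36010, a member of the thaumatin superfamily, stood at 27.8, 22.5 and 22.5 CPM in untreated, 6.08, 6.8 and 6.61 CPM in trans-zeatin and 22.2, 19.5 and 18.5 CPM in cis-zeatin roots at full phosphate. Its trans-zeatin replicates lay close together and its L difference was -1.75, the only other one beyond 1.5. GT18 (AT5G62220), a xyloglucan galactosyltransferase that decorates a hemicellulose, read 25.5, 20.3 and 19.2 CPM in untreated, 7.38, 7.88 and 7.97 CPM in trans-zeatin and 21.87, 20.2 and 20.9 CPM in cis-zeatin roots at full phosphate. Its cis-zeatin and untreated libraries overlapped, with L differences of -1.37 under trans-zeatin and -0.04 under cis-zeatin. AT1G26450, with the X8 domain that binds wall carbohydrate, had 38.6, 32.1 and 33.3 CPM in untreated, 15.2, 11.5 and 13.6 CPM in trans-zeatin and 31.9, 32.7 and 28.8 CPM in cis-zeatin roots at full phosphate. Again only the trans-zeatin libraries were low (-1.30). PG2 (AT1G70370), named polygalacturonase 2, had 144, 115 and 111 CPM in untreated, 55.2, 50.3 and 54.4 CPM in trans-zeatin and 135, 133 and 129 CPM in cis-zeatin roots at full phosphate. It is 1 of the 5 genes whose cis-zeatin mean was above untreated (L 0.10). The other 9 are the arabinogalactan protein AGP18, ENODL14 and ENODL15, the glycine-rich protein GRP5, and genes of DUF642, chitinase, matrixin, exostosin and core-2/I-branching families, with L differences under trans-zeatin from -1.19 to -1.001.

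Sugar metabolism held 2 genes. GlcNAc1pUT1 (AT1G31070) makes the activated sugar UDP-N-acetylglucosamine and had 88.7, 76.9 and 74.7 CPM in untreated, 34.6, 35.4 and 36.7 CPM in trans-zeatin and 71.3, 67.7 and 69.02 CPM in cis-zeatin roots at full phosphate, with an L difference of -1.15 under trans-zeatin. AT3G61610, which resembles galactose mutarotase, differed by -1.03.

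Genes of chromosome duplication and division made up 5 of the 46. HTA10 encodes a histone H2A that packages DNA and had 143, 144 and 138 CPM in untreated, 65.6, 62.8 and 72.8 CPM in trans-zeatin and 119.8, 112 and 122 CPM in cis-zeatin roots at full phosphate. PCNA1 (AT1G07370) is the sliding clamp that holds DNA polymerase on its template, and read 19.1, 18.05 and 17.3 CPM in untreated, 7.85, 8.91 and 8.07 CPM in trans-zeatin and 17.8, 16.99 and 16.3 CPM in cis-zeatin roots at full phosphate. HIK (AT1G18370), the kinesin HINKEL that is needed to build the new wall between daughter cells, had 28.6, 27.00 and 25.9 CPM in untreated, 13.2, 11.3 and 13.4 CPM in trans-zeatin and 23.9, 22.7 and 19.3 CPM in cis-zeatin roots at full phosphate. In all 3 genes the trans-zeatin libraries lay below every other full-phosphate library, and L was -1.07, -1.04 and -1.04 from untreated. RPA70D, a subunit of the replication protein A that coats single-stranded DNA, differed by -1.04 and the histone H3.1 gene AT5G10390 by -1.02. Histone H2A and H3.1 genes have near-identical copies, so the split of 50-nt reads among them is uncertain.

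Signalling and transport held 7 genes. GDU4 (AT2G24762), a glutamine dumper of the family that promotes amino acid export, had 49.8, 42.9 and 39.6 CPM in untreated, 20.7, 18.3 and 21.90 CPM in trans-zeatin and 36.5, 41.3 and 37.02 CPM in cis-zeatin roots at full phosphate. MSS3 (AT2G43290), a calmodulin-like calcium sensor, read 48.3, 40.4 and 41.6 CPM in untreated, 19.1, 18.1 and 21.2 CPM in trans-zeatin and 37.6, 47.03 and 38.5 CPM in cis-zeatin roots at full phosphate. Their L differences under trans-zeatin were -1.08 and -1.12, and in both genes untreated and cis-zeatin libraries overlapped. The calcium-permeable channel family member CNGC9, the IQ-domain gene IQD6, the STRUBBELIG-family receptor kinase SRF8, the ABC transporter ABCG39 and the N-MYC downregulated-like gene NDL2 differed by -1.05 to -1.02. NDL2 read 111, 110.1 and 109.5 CPM under cis-zeatin, above each of its untreated libraries (109, 97.8 and 99.1 CPM). Among 5 regulators, NAC097 (AT5G50820), of the plant NAC transcription factor family, had 13.6, 9.89 and 9.77 CPM in untreated, 3.83, 2.25 and 4.08 CPM in trans-zeatin and 9.17, 9.36 and 9.28 CPM in cis-zeatin roots at full phosphate. Its untreated replicate 1 was high, the others lay just above the cis-zeatin libraries, and L was -1.46 from untreated under trans-zeatin. AT5G20885, with the RING domain found in ubiquitin ligases, differed by -1.24, the RNA-binding GR-RBP3 by -1.16, the WD40 gene AT1G11160 by -1.06 and AT2G23530 by -1.003.

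A further 3 genes encode Cys/His-rich C1-domain proteins, a large plant family whose near copies make read assignment uncertain. AT5G54040 had 35.9, 37.8 and 38.1 CPM in untreated, 12.3, 12.5 and 13.9 CPM in trans-zeatin and 33.2, 34.4 and 26.5 CPM in cis-zeatin roots at full phosphate, with an L difference of -1.46 under trans-zeatin, and AT5G54020 and AT5G42840 differed by -1.24 and -1.19. Of 5 other annotated genes, AT3G62040, a haloacid dehalogenase-like hydrolase, had 474, 424 and 407 CPM in untreated, 219.7, 184 and 199 CPM in trans-zeatin and 372, 387 and 401 CPM in cis-zeatin roots at full phosphate. AT3G15650, an alpha/beta hydrolase, read 7.04, 5.04 and 5.02 CPM in untreated, 1.78, 1.41 and 1.74 CPM in trans-zeatin and 4.85, 5.13 and 4.36 CPM in cis-zeatin roots at full phosphate. The trans-zeatin libraries of both were below all others. LBO1 (AT3G21420), an oxygenase of strigolactone synthesis, the early light-inducible ELIP1 and AT5G66230, of the chalcone-flavanone isomerase family, differed by -1.06, -1.17 and -1.01. The last 5 genes are uncharacterized. AT1G22065 had 29.5, 24.5 and 23.6 CPM in untreated, 11.2, 8.91 and 10.51 CPM in trans-zeatin and 24.1, 26.7 and 26.4 CPM in cis-zeatin roots at full phosphate, so that cis-zeatin left its mean where it was (L -0.01) while trans-zeatin gave -1.26. AT5G01790 had the highest cis-zeatin value of the 46, 0.28.

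**Figure D2:**
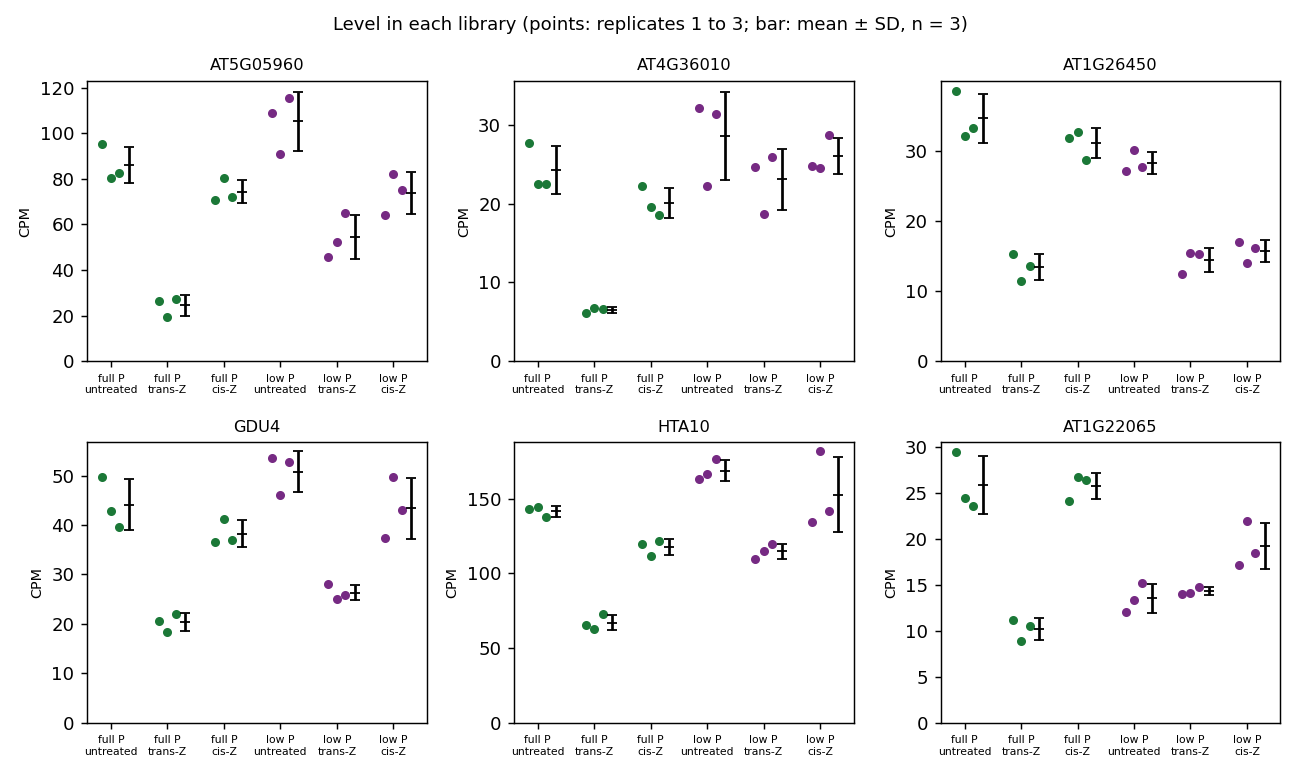
CPM in each of the 18 libraries for 6 of the genes (points, replicates 1 to 3 from left to right; green, full phosphate; purple, low phosphate; bars, mean ± SD, n = 3); the vertical axes start at 0. Under trans-zeatin at full phosphate all 6 genes are low, whereas at low phosphate AT1G26450 is low under both isomers, GDU4 is low under trans-zeatin, and AT4G36010 overlaps among the 3 groups.

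Low phosphate was compared next. Its zeatin libraries entered the rule only through the level of at least 5 CPM in some group. All 46 genes also met that level in untreated full-phosphate roots (lowest 5.11 CPM). Its untreated libraries entered through the same level and the bound on the phosphate difference. Without zeatin, 33 of the 46 genes were higher and 13 lower in low than in full phosphate, within the bound of 1 and with a median L difference of 0.25. The ends were ELIP1 at 0.98 and AT1G22065 at -0.89. The median gene stood at 74.6% of its untreated CPM under trans-zeatin and at 87.5% under cis-zeatin in low phosphate. In 45 of the 46 genes the trans-zeatin mean was higher in low than in full phosphate, a description, since the full-phosphate trans-zeatin means were used to choose the genes.

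Under trans-zeatin at low phosphate 26 of the 46 genes fell and none rose, while 20 did not pass the test (edgeR quasi-likelihood test, adjusted p under 0.05 over 19982 genes). Over all genes tested 18.4% were called lower and 13.8% higher. At an unadjusted p under 0.05, 34 of the 46 were lower and none higher, against 4547 and 3598 of all 19982 genes. DESeq2 called 26 lower and none higher, against 16.2% and 12.4% of the 21781 genes it tested. The median log2 fold change was -0.42, with a range of -0.98 to 0.15, against -0.01 over all genes tested. The 3 replicates of 28 of the 46 genes lay wholly below the untreated ones, as did those of 23.2% of all genes. With the sequencing set as a term in a fit of the low-phosphate libraries, the count was 14, which rests on replicate 1 as the only trans-zeatin library of its set, and 6.7% of all genes were then called lower.

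AT3G15650 had the largest fall, with 5.18, 4.78 and 6.53 CPM in untreated, 2.41, 2.9 and 3.02 CPM in trans-zeatin and 3.59, 3.66 and 4.3 CPM in cis-zeatin roots at low phosphate. Its trans-zeatin and untreated libraries did not overlap, and trans-zeatin changed it by -0.98 ± 0.16 (SE) on the log2 scale (adjusted p = 6.5e-05). AT1G26450 had 27.1, 30.1 and 27.8 CPM in untreated, 12.5, 15.5 and 15.3 CPM in trans-zeatin and 16.98, 14.04 and 16.2 CPM in cis-zeatin roots. Both isomers lay below untreated in every library, with -0.97 ± 0.10 (SE) under trans-zeatin (adjusted p = 2.1e-07) and -0.82 ± 0.10 (SE) under cis-zeatin (adjusted p = 2.5e-06). AT5G05960 had 109, 90.9 and 116 CPM in untreated, 45.8, 52.4 and 64.97 CPM in trans-zeatin and 64.1, 82.3 and 75.1 CPM in cis-zeatin roots. It fell under both isomers, with -0.95 ± 0.13 (SE) under trans-zeatin (adjusted p = 5.9e-06) and, with libraries mostly in between, -0.48 ± 0.13 (SE) (adjusted p = 0.0061). The calcium sensor MSS3 had 55.4, 54.8 and 54.1 CPM in untreated, 27.7, 26.97 and 34.5 CPM in trans-zeatin and 31.6, 39.3 and 37.1 CPM in cis-zeatin roots. Trans-zeatin gave -0.88 ± 0.11 (SE) (adjusted p = 1.3e-06) and cis-zeatin -0.58 ± 0.11 (SE) (adjusted p = 0.000226), and neither zeatin group overlapped with untreated. AT5G19875, AT1G73810 and AT5G54020 completed the 8 largest falls together with GDU4, at -0.97, -0.79 and -0.72.

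By role, 8 of the 14 wall and surface genes fell under trans-zeatin at low phosphate, 5 of 7 of signalling and transport, 2 of 3 C1-domain genes, 3 of 5 other annotated and 3 of 5 uncharacterized genes, 2 of 5 regulators, 1 of 2 of sugar metabolism and 2 of 5 of duplication and division. In this last group HTA10 changed by -0.55 ± 0.09 (SE) (adjusted p = 4.9e-05) and HIK by -0.60 ± 0.10 (SE) (adjusted p = 5.8e-05), whereas PCNA1 (-0.26 ± 0.12 (SE), adjusted p = 0.0987), RPA70D (-0.17 ± 0.10 (SE), adjusted p = 0.205) and AT5G10390 (0.07 ± 0.13 (SE), adjusted p = 0.723) did not pass. AT4G36010, second at full phosphate, had 32.2, 22.2 and 31.4 CPM in untreated, 24.7, 18.7 and 25.96 CPM in trans-zeatin and 24.8, 24.6 and 28.7 CPM in cis-zeatin roots at low phosphate. The 3 groups overlapped, and the trans-zeatin difference of -0.30 ± 0.14 (SE) did not pass the test (adjusted p = 0.108). The labels state no pairing of libraries. At low phosphate, deviations from the group means correlated between same-numbered untreated and trans-zeatin libraries (r 0.27, 0.30 and 0.17), so a pairing by number was inferred from these data. A fit of these groups alone called 27 of the 46 genes lower, and 13.8% of all genes lower and 12.5% higher. With the number as a block, the fit of these groups alone called 36 of the 46, and 20% of all genes lower and 18.7% higher. That fit called AT4G36010 (-0.27, adjusted p = 0.00611), PCNA1 (-0.23, adjusted p = 0.0212), ABCG39 (-0.37, adjusted p = 0.0383), NAC097 (-0.38, adjusted p = 0.0391) and ENODL14 (-0.23, adjusted p = 0.0443), none of which passed with the block over all libraries. AT3G62040, PG2, GlcNAc1pUT1, SRF8 and AT5G20885, among the genes with most reads, fell, with values from -0.49 to -0.36, while NDL2, also among them, was at -0.14 (adjusted p = 0.226) and did not pass. GT18 fell by 0.33 (adjusted p = 0.0318), a call that was lost without replicate 1 or 3 of the untreated or replicate 1 or 2 of the trans-zeatin libraries. AT1G68470 (exostosin family), AT5G01790, AT1G22065 and AT5G10390 are the 4 genes with a trans-zeatin value above 0, between 0.07 and 0.15, and none passed.

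Under cis-zeatin at low phosphate 18 of the 46 genes fell and 1 rose (edgeR, adjusted p under 0.05), against 18.1% and 13.1% of all genes tested. The median log2 fold change was -0.16, against -0.03 over all genes. This comparison shares its untreated libraries with the trans-zeatin comparison. AT1G22065 is the gene that rose, with 12.02, 13.3 and 15.2 CPM in untreated, 13.97, 14.2 and 14.8 CPM in trans-zeatin and 17.2, 21.99 and 18.5 CPM in cis-zeatin roots at low phosphate. The cis-zeatin libraries lay above all others and differed from untreated by 0.54 ± 0.11 (SE) (adjusted p = 0.000599). ABCG39 had 5.51, 6.67 and 10.07 CPM in untreated, 4.91, 5.35 and 6.41 CPM in trans-zeatin and 3.69, 2.79 and 5.7 CPM in cis-zeatin roots. It had the lowest cis-zeatin value, -0.84 ± 0.23 (SE) (adjusted p = 0.00774), although its replicates were scattered and cis-zeatin replicate 3 overlapped with untreated. The call was lost without untreated replicate 3 or cis-zeatin replicate 2. AT1G26450, AT5G19875 and AT1G73810 followed at -0.82, -0.74 and -0.64. All low-phosphate cis-zeatin libraries belong to the third sequencing set and all untreated ones to the second. With the set as a term 1 gene was called, AT1G26450, together with 3.08% of all genes. That fit tells set from cis-zeatin only through replicate 1 of trans-zeatin, the only trans-zeatin library of the second set. Within the untreated and cis-zeatin libraries, set and treatment cannot be told apart for any of the calls, AT1G26450 included.

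**Figure D3:**
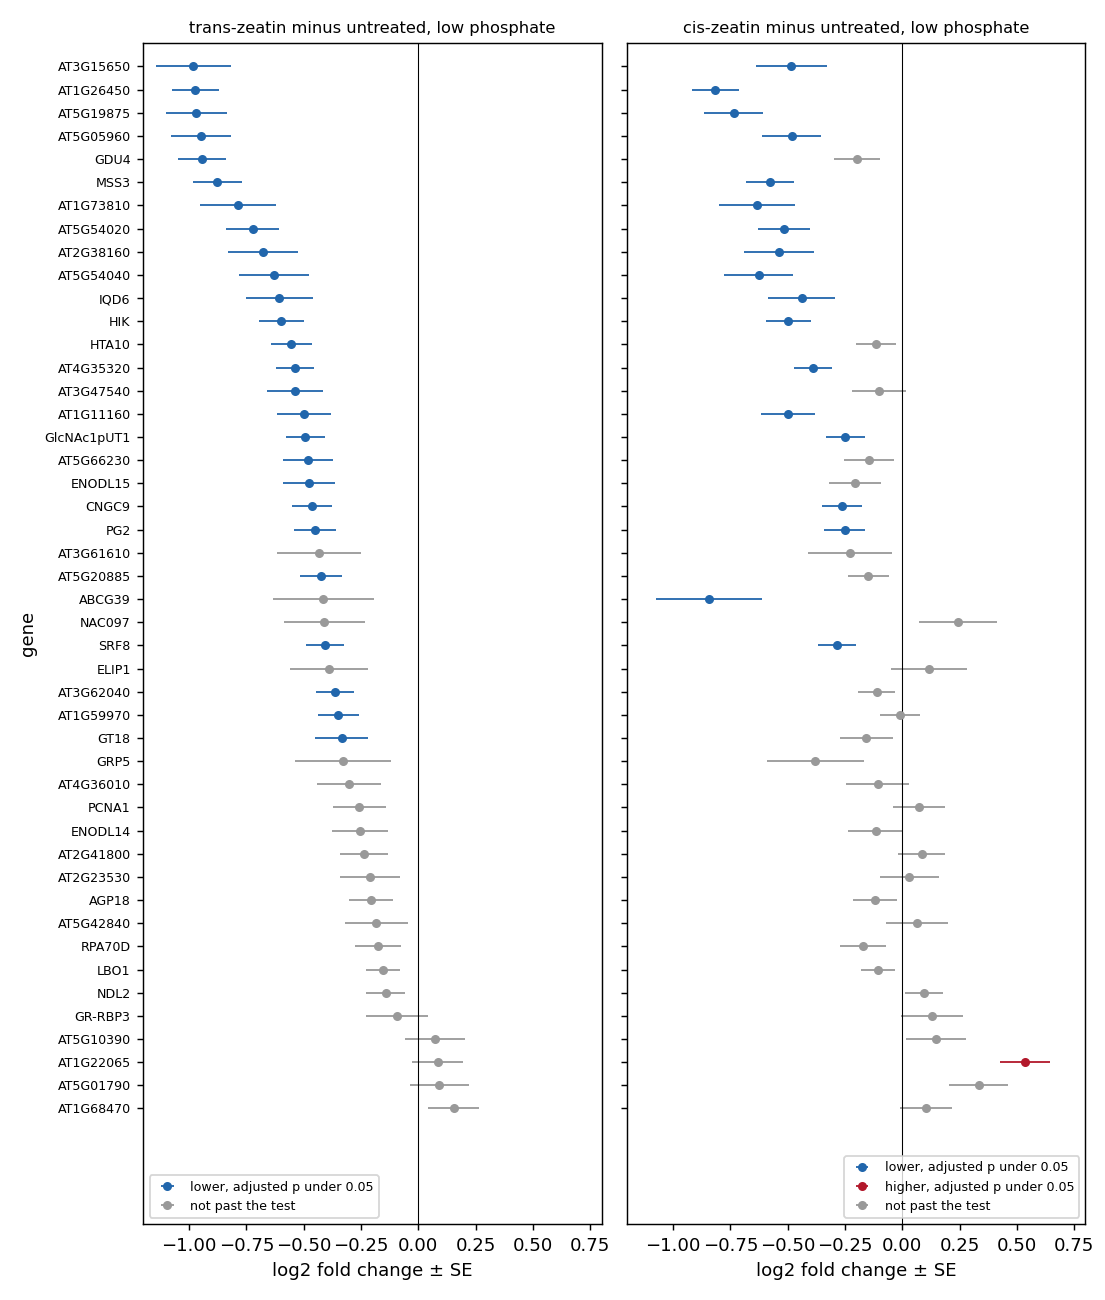
Log2 fold change ± SE (edgeR) at low phosphate for the 46 genes, trans-zeatin against untreated on the left and cis-zeatin against untreated on the right, ordered by the trans-zeatin value; both panels share the untreated libraries. Colour marks adjusted p under 0.05: 26 genes are lower under trans-zeatin, and under cis-zeatin 18 are lower and AT1G22065 is higher.

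The 2 isomers were compared with each other at low phosphate, the only pair of compounds at a matched dose and time whose difference was not used in the choice. In all, 5 of the 46 genes were lower under trans-zeatin than under cis-zeatin and none higher (edgeR, adjusted p under 0.05), against 1.42% and 1.35% of all genes. At an unadjusted p under 0.05, 20 were lower and none higher, against 1972 and 1920 of all 19982 genes. DESeq2 called 7 lower and none higher, against 2.21% and 2.54% of the 18915 genes it tested. The value was below 0 in 42 of 46 genes, with a median of -0.22, against -0.003 over all genes and 10095 of 19982 genes below 0. The trans-zeatin replicates lay wholly below the cis-zeatin ones in 11 of the 46 genes and in 7.09% of all genes. The count of 5 depends on single libraries, and the share of all genes called lower moved as well. The count was 2 without trans-zeatin replicate 1 (1.02% of all genes), 3 without trans-zeatin replicate 2 (0.596%) and 6 without trans-zeatin replicate 3 (1.22%). It was 10 without cis-zeatin replicate 1 (2.01%), 2 without cis-zeatin replicate 2 (0.825%) and 3 without cis-zeatin replicate 3 (1.05%). With only the 6 zeatin libraries in the fit it was 1 (0.18%), as it was with the sequencing set as a term (0.193%).

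GDU4 differed most, with 53.5, 46.1 and 52.8 CPM in untreated, 28.1, 25.1 and 25.8 CPM in trans-zeatin and 37.4, 49.7 and 43.1 CPM in cis-zeatin roots at low phosphate. The trans-zeatin libraries lay below all cis-zeatin and untreated ones, and the isomers differed by -0.75 ± 0.10 (SE) (adjusted p = 0.000422). It is the gene that stayed called with only the zeatin libraries in the fit (adjusted p = 0.019) and with the set as a term, and trans-zeatin lowered it by 0.94 from untreated while the cis-zeatin value of -0.20 did not pass (adjusted p = 0.148). The histone gene HTA10 had 163, 167 and 176 CPM in untreated, 109.7, 115 and 119.5 CPM in trans-zeatin and 135, 182 and 142 CPM in cis-zeatin roots. Cis-zeatin replicate 2 stood above the rest, and the isomers differed by -0.44 ± 0.09 (SE) (adjusted p = 0.0103), or by -0.30 (adjusted p = 0.031) without that library. NAC097 had 11.9, 9.32 and 8.61 CPM in untreated, 6.37, 8.81 and 7.24 CPM in trans-zeatin and 8.77, 13.5 and 12.3 CPM in cis-zeatin roots. Trans-zeatin replicate 2 just overlapped with cis-zeatin replicate 1, and the difference of -0.66 ± 0.17 (SE) (adjusted p = 0.0463) passed with all libraries and without cis-zeatin replicate 1, but not when any other of the zeatin libraries was left out. AT1G22065, given above, differed by -0.45 ± 0.11 (SE) (adjusted p = 0.0268), with the trans-zeatin libraries inside the untreated range. The matrixin-family gene AT1G59970 read 27.5, 24.05 and 27.7 CPM in untreated, 19.5, 20.9 and 21.7 CPM in trans-zeatin and 24.02, 25.1 and 28.00 CPM in cis-zeatin roots, without overlap between the isomers, and differed by -0.34 ± 0.09 (SE) (adjusted p = 0.0425). The calls of AT1G22065 and AT1G59970 were lost without trans-zeatin replicate 1 or 2 or cis-zeatin replicate 2, and that of AT1G59970 also without cis-zeatin replicate 3.

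For the other 41 genes no difference between the isomers was called, and the 95% intervals of the difference, not adjusted for the number of genes, ran from as low as -0.86 to as high as 0.92. In 24 of them the interval lay within 0.5 of 0. HIK had 37.8, 37.1 and 40.6 CPM in untreated, 23.2, 30.01 and 23.2 CPM in trans-zeatin and 26.03, 23.8 and 30.4 CPM in cis-zeatin roots and an interval of -0.31 to 0.11, and AT1G26450 one of -0.38 to 0.07. PCNA1 had 21.3, 25.3 and 24.4 CPM in untreated, 17.6, 21.4 and 20.5 CPM in trans-zeatin and 20.01, 30.9 and 22.4 CPM in cis-zeatin roots, with cis-zeatin replicate 2 the highest of them, and its interval was -0.57 to -0.09. AT5G05960 had an interval of -0.74 to -0.20, and AT5G54040 one of -0.32 to 0.32. The intervals of PCNA1 and AT5G05960 left out 0, but after adjustment over all genes neither passed (edgeR, adjusted p = 0.119 and 0.0561). At full phosphate the difference between isomers defines the group and is not tested.

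Groups chosen with the same thresholds were followed at low phosphate in the same way. Of 207 genes lowered by both zeatins at full phosphate (L lower by at least 1 under each), 204 fell under trans-zeatin and 202 under cis-zeatin at low phosphate, with medians of -1.45 and -1.30. Of 84 genes raised by trans-zeatin within the same cis-zeatin window, 52 rose and 2 fell under trans-zeatin, with a median of 0.49. Between the isomers at low phosphate, 20 of the 207 genes were lower under trans-zeatin and none higher (9.662%, median -0.18), beside 5 of the 46 (10.87%, median -0.22), and 18 of the 84 were higher and none lower. The smaller trans-zeatin median of the 46 genes, -0.42, is set beside these as a description, since the groups also differ in how far their genes moved at full phosphate.

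PCNA1 and HIK belong to lists of DNA replication and mitosis genes, and the other genes of these lists were tested at both phosphate levels. They were not chosen by the rule, although the full-phosphate tests were added after values had been seen. Of the other 12 replication genes (MCM2 to MCM7, which form the replicative helicase, PCNA2, CDC45, ORC2, CDT1A and the ribonucleotide reductase genes RNR1 and TSO2) 11 fell under trans-zeatin at full phosphate (edgeR, adjusted p under 0.05, against 25.3% of all genes), with a median log2 fold change of -0.58 (24.2% of all genes rose). CDC45 did not pass. Under cis-zeatin at full phosphate none of the 12 was called in either direction, at an adjusted or an unadjusted p under 0.05 or by DESeq2, against 13.5% of all genes lower and 12.7% higher. Their values ran from -0.18 to 0.16. The isomers differed in 11 of 12, all lower under trans-zeatin, against 20.5% of all genes, in libraries of different sequencing sets. At low phosphate none of the 12 fell under trans-zeatin, at an adjusted or unadjusted p under 0.05 or by DESeq2, and 1 rose, where 18.4% of all genes fell and 13.8% rose. The change of the trans-zeatin response from full to low phosphate was itself called in 11 of 12, all upward, with a median of 0.71, against 9.28% of all genes upward and 11.2% downward. Leaving out single libraries gave 8 to 11, where 6.37% to 10.4% of all genes were called upward. At low phosphate, trans-zeatin replicates 2 and 3 belong to another sequencing set than the untreated libraries. The part of the set in this change was not tested, here or for the mitosis genes below.

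RNR1 and TSO2 encode the large and small subunits of the enzyme that makes deoxyribonucleotides. TSO2 had 46.7, 39.7 and 37.2 CPM in untreated, 21.3, 21.2 and 22.6 CPM in trans-zeatin and 42.7, 44.5 and 39.2 CPM in cis-zeatin roots at full phosphate, so that only trans-zeatin was low (-0.83 ± 0.10 (SE), adjusted p = 7.3e-07). At low phosphate it had 47.5, 57.3 and 49.3 CPM untreated and 45.2, 60.95 and 53.7 CPM under trans-zeatin, which overlapped, and its response differed between phosphate levels by 0.88 ± 0.14 (SE) (adjusted p = 0.000142). RNR1 had 63.9, 64.5 and 58.2 CPM untreated and 41.03, 40.7 and 43.99 CPM under trans-zeatin at full phosphate, but 71.1, 73.6 and 69.9 CPM and 80.2, 98.6 and 88.4 CPM at low phosphate. It fell at full (-0.47 ± 0.09 (SE), adjusted p = 0.000117) and rose at low phosphate (0.32 ± 0.08 (SE), adjusted p = 0.00597). Trans-zeatin replicate 2 was the highest low-phosphate library in both genes. Without the low-phosphate zeatin libraries numbered 2, the change of response was called in 9 of 12 genes.

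The mitosis list was compared in the same way. Of 16 genes other than HIK, which include B-type cyclins, B-type cyclin-dependent kinases, Aurora kinases and KNOLLE, the syntaxin of cell plate formation, 15 fell under trans-zeatin at full phosphate and 14 at low phosphate, against 25.3% and 18.4% of all genes, with medians of -0.74 and -0.49. Under cis-zeatin 5 fell at full and 13 at low phosphate, against 13.5% and 18.1% of all genes. At both levels the untreated and cis-zeatin libraries belong to different sequencing sets, so set and cis-zeatin cannot be told apart in these counts. The count of 5 was 3 without untreated replicate 1, 2 without untreated replicate 2 and 1 without cis-zeatin replicate 3. The share of all genes called lower was then 11.1%, 11% and 11.5%. The isomers differed in 14 of 16 at full phosphate, all lower under trans-zeatin (20.5% of all genes were), and in none at low phosphate (edgeR, adjusted p under 0.05), where 3 were lower at an unadjusted p under 0.05 and DESeq2 called none. The trans-zeatin response changed between phosphate levels in 3 of 16, all upward, against 9.28% of all genes upward and 11.2% downward, or in 1 without full-phosphate trans-zeatin replicate 2 and in 5 without low-phosphate trans-zeatin replicate 1. CYCB1;1, a cyclin of mitotic entry, had 8.35, 7.97 and 7.77 CPM untreated, 2.62, 3.42 and 2.77 CPM under trans-zeatin and 5.42, 4.46 and 4.73 CPM under cis-zeatin at full phosphate, without overlap between any of the groups, with -1.35 ± 0.13 (SE) under trans-zeatin (adjusted p = 2.8e-08) and -0.66 ± 0.12 (SE) under cis-zeatin (adjusted p = 0.000235). Of the promoters of these lists, 8 of 17 in mitosis and 2 of 13 in replication hold CAACGG, against 5.284% of all promoters. TTTCCCGC stands in 4 of 13 in replication and in none in mitosis, against 0.6195% of all promoters.

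**Figure D4:**
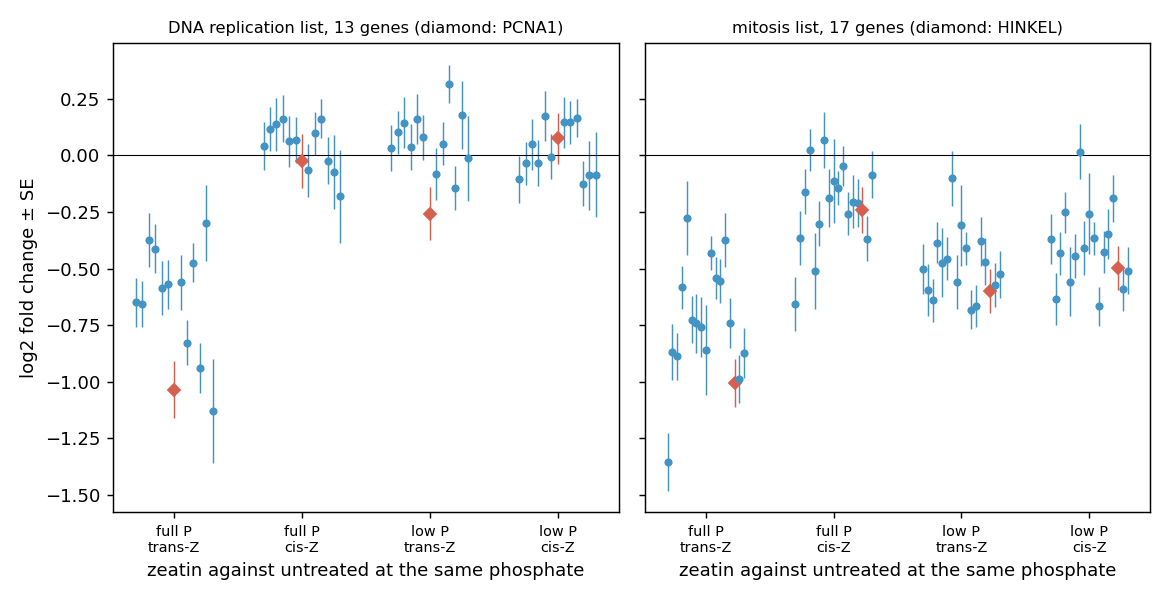
Log2 fold change ± SE (edgeR) against untreated roots at the same phosphate level for the 13 DNA replication genes (left) and the 17 mitosis genes (right) under each isomer; diamonds mark PCNA1 and HIK (HINKEL), whose full-phosphate values were used in choosing them. All replication genes lie below 0 under trans-zeatin at full phosphate and scatter around 0 in the other columns. Mitosis genes lie mostly below 0 under both isomers at both phosphate levels.

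Markers of cell types moved with the treatments, and their part in the results was not tested. A summed level can hide markers that moved in opposite directions. The summed level of 7 root meristem markers, all detected, was 174 to 194 CPM in untreated roots, 127 to 134 CPM with trans-zeatin and 123 to 140 CPM with cis-zeatin at full phosphate. At low phosphate it was 171 to 211, 137 to 201 and 120 to 162 CPM, with replicate 2 the highest under trans-zeatin and the lowest under cis-zeatin. The 9 endodermis markers summed to 717 to 752, 420 to 485 and 418 to 504 CPM at full phosphate and 863 to 1067, 543 to 831 and 681 to 752 CPM at low phosphate, in the same order of groups. The 14 root hair markers, all detected, summed to 787 to 878 CPM in untreated, 693 to 956 CPM in trans-zeatin and 1351 to 1908 CPM in cis-zeatin roots at full phosphate, where the cis-zeatin libraries, of another sequencing set, all lay above both other groups. At low phosphate their sums were 2836 to 3442, 2454 to 3266 and 2866 to 4200.1 CPM, which overlapped. Of the 14 there, 4 were called lower and 2 higher under trans-zeatin (edgeR, adjusted p under 0.05), against 18.4% and 13.8% of all genes. Under cis-zeatin 3 were called lower and 2 higher, against 18.1% and 13.1%. The 4 phloem markers summed to 105 to 115, 182 to 206 and 163 to 170.4 CPM at full phosphate, without overlap between the groups. At low phosphate they summed to 127 to 148, 160.4 to 169.9 and 133 to 137 CPM. There 2 of the 4 were called lower and 2 higher under trans-zeatin, and 2 lower and 1 higher under cis-zeatin. The 8 xylem markers summed to 551 to 638, 594 to 630.15 and 689 to 788 CPM at full phosphate and 470.5 to 516, 555 to 590.4 and 616 to 627 CPM at low phosphate. The 4 root cap markers summed to 15.5 to 17.2, 10.9 to 13.2 and 10.7 to 14.15 CPM at full phosphate and 21.6 to 30.01, 18.1 to 32.6 and 20.2 to 23.5 CPM at low phosphate. All phloem, xylem and root cap markers were detected in every group. The 11 shoot or photosynthesis markers summed to 52.6 to 100.3 CPM in untreated, 134 to 185 CPM in trans-zeatin and 50.2 to 56.1 CPM in cis-zeatin roots at full phosphate, where LHCB1.1 was at 0 under trans-zeatin. At low phosphate the sums were 19.98 to 28.6, 28.4 to 33.2 and 20.3 to 21.9 CPM, with LHCB1.1 at 0 in all groups and LHCB2.1 and RBCS3B at 0 in untreated roots. All 10 type-A response regulators rose under both isomers at low phosphate, with medians of 2.11 under trans-zeatin and 2.24 under cis-zeatin, and no isomer difference was called in any of them by edgeR, by DESeq2 or at an unadjusted p under 0.05.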

How the data were processed

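Root RNA of 18 libraries was analysed from the deposited gene table, which holds counts per gene, and from a deposited sequencing report (other, reads per library). The submitters' processing notes name CASAVA 1.4, FastQC, HISAT2, HTSeq and edgeR; genome build and strandedness are not given in the sources used here, so genes and antisense partners cannot be told apart. The deposited counts are called normalized in their title, but are whole numbers whose totals follow the clean reads, and were analysed as raw counts. CPM in the text is the count scaled to a common library total.

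Tests used edgeR 4.0.16 in R 4.3.3 (filterByExpr with a minimum count of 10, 19982 genes; TMM; quasi-likelihood test with a mean for each of 6 groups; Benjamini-Hochberg adjustment over all genes tested, threshold 0.05). TMM moved the median L difference of 16064 genes under trans-zeatin at full phosphate from -0.09 to -0.001. The standard error is the log2 fold change divided by the square root of F. Alternatives were DESeq2 1.42.0, other scaling, filters of none and 50, fewer groups, a replicate block, sequencing set and left-out libraries. A pairing by replicate number was inferred only for untreated and trans-zeatin libraries at low phosphate, where deviations from the group means correlate (r 0.27, 0.30 and 0.17). The labels state no pairing.

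The 46 genes, the lists and the role groups were chosen with earlier results of these data known. Named genes are the 8 largest falls and 8 highest levels at full phosphate, the extreme called genes of each low-phosphate comparison, list members and those nearest the threshold; others stand for their role group and were picked after values were seen. Promoters were read from the RefSeq genome TAIR10.1 by locus tag. Sequences are printed for 4 of the 8 promoters that hold CAACGG.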

Additional observations from a re-analysis of the deposited data

How the results depend on the processing

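The number of genes meeting the rule was 70 with a pseudocount of 0.25 (40 of them among the 46), 18 and 84 with a cis-zeatin window of 0.2 and 0.4, 92 and 22 with a fall of at least 0.9 and 1.1, and 38 to 57 when single libraries were left out. Without untreated replicate 1 at full phosphate 27 of the 46 were kept. Under trans-zeatin at low phosphate 14 genes were called with the sequencing set as a term, beside 6.7% of all genes lower. Without single libraries 25 to 28 were called, beside 15.3% to 17.3%. Under cis-zeatin the count of 19 was 1 with the set as a term, beside 3.08% of all genes lower. Without single libraries it was 14 to 18, beside 14.9% to 18.2%. For the isomer difference the count of 5 was 1 with only the groups compared (0.18% of all genes lower). It was 1 with the set as a term (0.193%) and 2 without both low-phosphate zeatin libraries numbered 2 (0.547%). Without single libraries it was 2 to 10 (0.596% to 2.01%).

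With the replicate number as a block in the groups compared alone, the isomer count was 0, with 0.072% of all genes called lower. GDU4 then had an adjusted p of 0.15 (edgeR). With the block over all libraries the count was 4, with 1.22% of all genes called lower. The isomer groups share only a number, not a pairing. A pairing was inferred from these data for the untreated and trans-zeatin libraries at low phosphate. Their blocked counts were 36 in the groups alone and 26 over all libraries. Of all genes, those fits called 20% and 18.1% lower. For replication genes under cis-zeatin at full phosphate 1 was called with only the groups compared, as with the block in those groups, against 0. For mitosis genes there the count of 5 was 3 with only the groups compared and 1 to 6 without single libraries. The change of the trans-zeatin response was called in 1 to 5 mitosis genes and 8 to 11 replication genes without single libraries.

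Of 1215 values of 27 named genes under alternatives, 1111 kept their side of the threshold, 81 lost and 23 gained a call. With a call in either fit, 0 changed direction. Uncalled values near 0 may have changed sign among the 1111. Of the 41 genes with no isomer call, 24 have a 95% interval of the difference within 0.5 of 0, and in the rest it reaches further.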
